A study of Mus musculus with 4 samples.

Results

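The ileum of mice fed paramylon (PM group) was compared with the ileum of mice fed cellulose (control group) on 2 of the 4 arrays of the series, gene by gene, beyond the pathways of fat, protein, IgA and water. Genes were taken from probes that carry exactly 1 gene symbol, with the probes of a gene averaged, and were kept where the gene reached the array median on at least 1 of the ileum arrays. This left 13035 of 22180 genes. Both groups were male C57BL/6J mice, bought at 4 weeks of age, kept for 7 days and then given a high-fat diet for 12 weeks, in which the fiber was paramylon in the PM group and cellulose in the control group. Paramylon is the storage beta-glucan of Euglena, here from the strain EOD-1. After 8 h of fasting a piece of ileum near the cecum was taken, and RNA from 10 mice of a group was mixed in equal parts for 1 Affymetrix mouse gene array.

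The ileum is the last stretch of the small intestine, where bile acids are taken back and where Paneth cells of the crypts and lymphoid follicles lie close to a dense bacterial flora. Enterocytes change their enzymes and carriers along the gut, so that sugar-splitting enzymes and fat carriers are strongest upstream, while carbonic anhydrases and other colon genes are strongest beyond the ileocecal valve. Interferon gamma, made by lymphocytes, acts on guanylate-binding proteins, GTPases of the IRG family, chemokines and antigen presentation, and phagocytes respond to microbes and to cell remains through C-type lectins and lysosomal enzymes.

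The values are log2 levels made by the authors with robust multichip analysis, and the log2 ratio of a gene is its PM level minus its control level. The thresholds were fold changes above 1.3 and below 0.77, and "rose" and "fell" are used only of genes past them. With 1 array of pooled RNA per group there are no replicates, so the spread between mice is not seen, the number of arrays limits the precision, and sizes are given with no p-value. Of the 13035 genes, 66 were above 1.3 (0.506%) and 117 were below 0.77 (0.898%), and these shares are the background against which the gene groups are read. The median log2 ratio of all genes was 0, because 8770 genes (67.3%) had identical values on both arrays. Unrelated genes also shared a value, such as Nr0b2 and Bhlhe41 at 4.14359 on both arrays. What made values identical was not tested, so "identical" below describes the deposited values and is not read as measured equality. A further 2234 genes were higher and 2031 lower in the PM group, and among these the median absolute log2 ratio was 0.06. Nearest to the thresholds, Cyp2a22 and Asah2 lay just past them, and Itgam (1.299-fold) and Ppy (0.772-fold) just short of them.

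The plot of change against level shows that genes past a threshold occurred at all levels and that the changes downwards were larger. At 2-fold, 5 genes were above and 31 below. The level of silent olfactory and vomeronasal receptor genes, taken as the 95th percentile of their 1400 probes, was 3.68. Of the 66 genes that rose, 9 had a control level under it, and of the 117 that fell, 14 had a PM level under it. For these a fold change is given only as a lower bound against 3.68. Among the 13010 genes at or above 3.68 on both arrays, the log2 ratios ran between -4.96 (Mptx1) and 1.60 (Saa3).

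**Figure D1:**
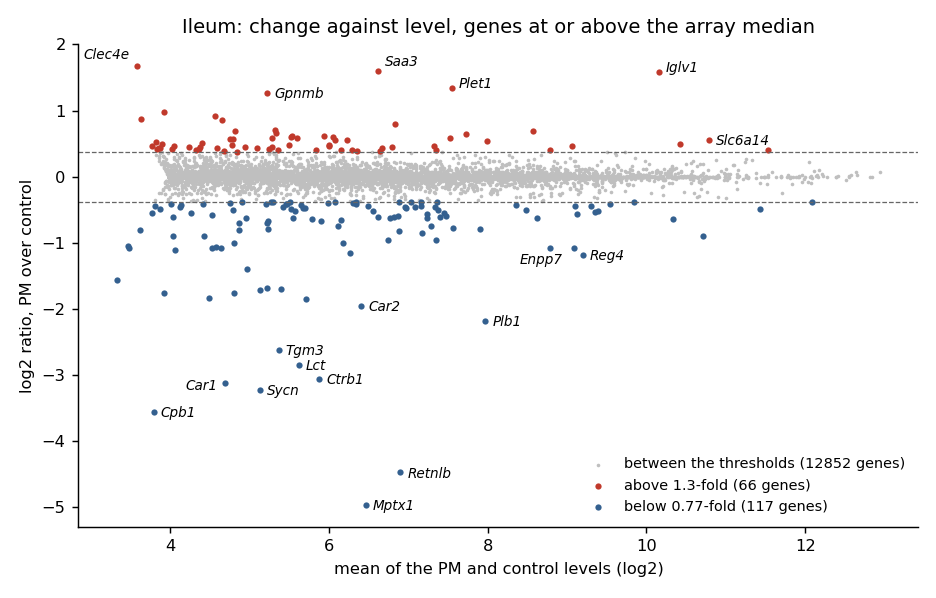
Log2 ratio of PM over control (y) against the mean of the PM and control log2 levels (x) for 13035 genes, each a point. The 66 genes above 1.3-fold are red, the 117 below 0.77-fold are blue, and the dashed lines are the thresholds; Mptx1 at -4.96 and Saa3 at 1.60 are the ends of the range among genes at or above 3.68 on both arrays, and Clec4e, drawn above Saa3, has a control level under it.

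The label of the tissue was checked on marker genes. The ileal genes Fabp6, the bile acid-binding protein (11.58 in the PM group and 11.83 in the control group), Slc10a2, the bile acid carrier of the brush border (10.72 in PM and 10.56 in control), and Slc51a, its partner on the other side of the cell (10.83 on both arrays), were high on both arrays, and none of the 9 ileal enterocyte genes passed a threshold. The Paneth cell genes Defa21 (12.98 in the PM group and 12.92 in the control group) and Lyz1 (12.68 in PM and 12.61 in control) were among the highest levels, and none of 12 Paneth cell genes passed a threshold. Genes of other tissues were also seen. Markers of cecum and colon had a summed linear level of 5028 in the PM group and 6402 in the control group over 14 genes, and markers of pancreatic acinar cells of 2130 in the PM group and 2595 in the control group over 14 genes. Bright genes weigh most in these sums, such as Slc26a3 of the first list (9.28 in PM and 9.52 in control). The sums therefore do not give the size of change of the dimmer markers. Median log2 ratios were -0.52 and -1.08 over the kept markers, and -0.13 and -0.18 over all measured. Another 6 measured markers of cecum and colon, with the posterior genes Hoxb13 (3.42 in PM and 3.70 in control) and Hoxd13 (3.01 on both arrays) among them, and 9 acinar markers, with the trypsinogen genes Prss1 (3.81 on both arrays) and Prss2 (3.50 in PM and 3.52 in control) among them, lay below the array median on both arrays. In bulk tissue, fewer cells of a type and less RNA per cell cannot be told apart.

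The 20 genes with the lowest log2 ratios, of which 19 are also among the 20 lowest when levels under 3.68 are raised to it, were led by secreted proteins of the epithelium. Mptx1, a mucosal pentraxin of the gut epithelium, had a level of 3.98 in the PM group and 8.94 in the control group (log2 ratio -4.96). Its relative Mptx2, made in Paneth cells, had 12.16 in the PM group and 11.93 in the control group, so that the pair did not move together. Retnlb, the goblet cell protein that acts on bacteria, had 4.66 in the PM group and 9.13 in the control group (-4.47). Of the 20, 6 are markers of cecum and colon, 6 are markers of pancreatic acinar cells and 8 are on neither list. Without both marker lists, 66 genes were above 1.3 and 100 below 0.77.

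The 6 markers of cecum and colon among them were Mptx1, Retnlb, Car1, Tgm3, Aqp8 and Insl5. Car1, a carbonic anhydrase, had 3.12 in the PM group, under the level of silent genes, and 6.25 in the control group, so it was at least 5.90-fold lower. Tgm3, a transglutaminase, had 4.06 in the PM group and 6.67 in the control group (-2.61). Insl5, the hormone of colonic endocrine cells, had 2.54 in PM and 4.10 in control, at least 1.34-fold lower in the PM group. The whole list gives the limits of this group. Of 14 genes, 7 fell, 12 were lower and 1 was higher, with a median log2 ratio of -0.52 beside 0 over all genes. Of these 14, 3 were kept through the control array alone (Car1, Aqp8 and Insl5), and over all 20 markers measured the same 7 fell and the median was -0.13. The chloride-bicarbonate exchanger Slc26a3 (9.28 in the PM group and 9.52 in the control group) and the carbonic anhydrase Car4 (9.16 in PM and 9.19 in control), both strong in the colon, stayed between the thresholds.

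Pancreatic genes made up the other block. Of 14 acinar markers, 10 fell, 13 were lower and 1 was higher, with a median log2 ratio of -1.08. Of these 14, 5 were kept through the control array alone, and over all 23 markers measured 11 fell and the median was -0.18. Sycn, a protein of zymogen granules, had 3.52 in the PM group and 6.74 in the control group, at least 8.31-fold lower. The chymotrypsinogen Ctrb1 had 4.35 in the PM group and 7.40 in the control group (-3.05), and Reg1, a secreted lectin of acinar cells, 3.98 in PM and 4.87 in control (-0.89). The digestive enzymes of this list need no further account here. What part RNA of pancreas or of cecum and colon has in the genes that fell was not tested.

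The 8 on neither list were Lct, Plb1, Car2, Gimd1, Atp12a, Fabp1, Sval1 and Reg4. Lct, the lactase of the brush border, had 4.19 in the PM group and 7.04 in the control group (-2.84). Plb1, the brush border phospholipase, had 6.88 in PM and 9.06 in control (-2.18). Both are enzymes of the apical membrane of enterocytes. Car2, a cytosolic carbonic anhydrase, had 5.43 in the PM group and 7.38 in the control group (-1.95), and its neighbor Car1 was named above. Atp12a, the proton-potassium pump found outside the stomach, had 3.57 in PM and 5.41 in control, at least 3.31-fold lower in the PM group. Reg4, a secreted lectin of goblet and endocrine cells, was bright on both arrays at 8.61 in the PM group and 9.79 in the control group (-1.18). Gimd1, a GTPase of the IMAP family, had 4.78 in PM and 6.63 in control (-1.85) and Sval1 4.37 in PM and 6.06 in control (-1.69).

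**Figure D2:**
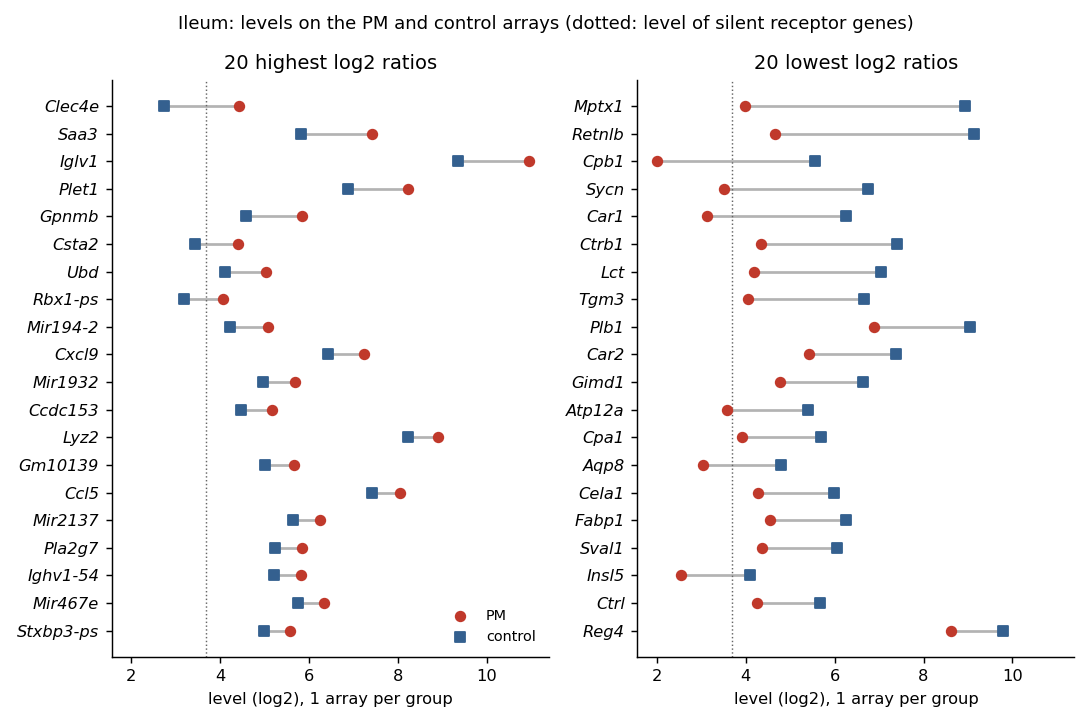
Log2 levels (x) of the 20 genes with the highest (left) and the 20 with the lowest (right) log2 ratios, as red points for the PM array and blue squares for the control array, 1 array per group. The dotted line is 3.68, the level of silent receptor genes, and the PM points of Cpb1, Sycn, Car1, Atp12a, Aqp8 and Insl5 lie to its left.

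Brush border enzymes fell in part. Of 26 disaccharidases, peptidases and other proteins of the apical membrane, 5 fell and none rose, 11 were lower, 5 were higher and 10 identical. Besides Lct and Plb1 these were enzymes that split sphingolipids and nucleotides. Enpp7, the alkaline sphingomyelinase, had 8.55 in the PM group and 9.63 in the control group (-1.08), and Asah2, the neutral ceramidase that acts after it, had 9.66 in PM and 10.03 in control (-0.38). Nt5e, the ecto-nucleotidase CD73, had 6.51 in the PM group and 7.12 in the control group (-0.60). The phosphatase Alpi (10.48 in the PM group and 10.79 in the control group) and the peptidase Mme (9.64 in PM and 9.72 in control) were between the thresholds. Of 17 markers of the proximal small intestine 6 fell and 11 were lower, with a median of -0.09. Of these, 3 are fat genes (Fabp1, Apoa4 and Creb3l3), and the others were Lct, the retinol-binding protein Rbp2 and Tm4sf4, a tetraspan protein, which had 8.14 in the PM group and 8.57 in the control group (-0.42). Rbp2 is the mean of 2 probes with log2 ratios of -0.37 and -1.19. Of 26 genes placed along the villus, 5 fell. These were 3 of the fat genes, with Nt5e and Ephx2, so this count adds only Ephx2 to those named above and below.

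Carbonic anhydrases, which turn carbon dioxide and water into bicarbonate and protons, were lower in 7 of 10 genes and higher in 1, and 2 fell (Car1 and Car2), with a median of -0.06. Car13 had 8.25 in the PM group and 8.55 in the control group (-0.30), and Car4 and Car12 (6.75 in PM and 6.85 in control) changed less. Among 33 genes of ion transport, 3 fell and none rose. Besides Atp12a these were Scnn1a, the alpha subunit of the epithelial sodium channel, with 6.11 in the PM group and 6.50 in the control group (-0.39), and Ano1, a calcium-activated chloride channel, with 6.68 in PM and 7.07 in control (-0.39). The related scramblase Ano6 also fell, at 8.85 in the PM group and 9.41 in the control group (-0.57), so that 2 of 6 anoctamin genes were below 0.77. The guanylin gene Guca2a, whose peptide drives fluid secretion, had 10.84 in the PM group and 11.16 in the control group (-0.33).

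Enzymes that handle foreign compounds were lower more often than higher. Of 26 listed cytochromes P450 of families 1 to 4, 4 fell, 12 were lower and 4 were higher. Over all 54 genes measured from this list, with Ahrr, which is not a P450, among them, 4 fell, 17 were lower and 8 were higher. Among these 54, 1 rose, Cyp3a57, which lay below the level of silent genes on both arrays (2.47 in PM and 1.98 in control). Cyp2a22, which is not on the list, also rose (5.03 in the PM group and 4.65 in the control group, 0.38). Cyp2c65 had 6.26 in the PM group and 7.22 in the control group (-0.96), and Cyp4b1 had 6.73 in PM and 7.19 in control (-0.46). Cyp3a25 had 3.58 in the PM group and 4.48 in the control group, at least 1.73-fold lower. Cyp2c55, which is also on the cecum and colon list, had 4.83 in PM and 5.63 in control (-0.80) averaged over a probe at -1.59 and another whose values were identical on both arrays. Conjugation follows oxidation in this pathway. Of 36 genes listed with it, which include hydrolases such as Ces2a, Ces1f and Ephx2, 3 fell, 17 were lower and 3 were higher. Sult1a1, a sulfotransferase of phenols, had 5.69 in the PM group and 6.84 in the control group (-1.15), while the glutathione transferase Gsta4 (6.83 in PM and 7.22 in control) and the epoxide hydrolase Ephx2 (7.16 in PM and 7.55 in control) had log2 ratios of -0.39 each. The efflux pump Abcc2, which exports conjugates into the lumen, fell as well, with 8.23 in the PM group and 8.73 in the control group (-0.50). The medians of both lists were 0.

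Other enzymes and carriers fell singly. Cda, cytidine deaminase, had 6.93 in the PM group and 7.54 in the control group (-0.62), and with Nt5e it made 2 of 20 genes of nucleotide metabolism that fell. Arg2, the mitochondrial arginase, had 7.18 in the PM group and 7.78 in the control group (-0.60). Slc5a4b, a member of the sodium-glucose carrier family, had 5.67 in PM and 6.68 in control (-1.01), and Slc23a1, the vitamin C carrier, 4.64 in PM and 5.26 in control (-0.62). In mucin glycosylation 2 of 32 genes fell, the sialyltransferases St3gal6 (5.56 in the PM group and 6.23 in the control group, -0.66) and St6galnac6 (5.46 in PM and 6.10 in control, -0.64), while the mucin Muc2 had 12.00 in PM and 12.08 in control. Goblet cell genes were lower in 14 of 16 and higher in 1, but Retnlb was the single one that fell, and the median was -0.06. Neighboring epithelial genes fell in pairs: the gasdermins Gsdmc2 (6.48 in the PM group and 7.29 in the control group, -0.82) and Gsdmc3 (6.91 in PM and 7.65 in control, -0.74), proteins that form pores, and the kallikreins Klk1 (10.01 in PM and 10.66 in control, -0.64) and Klk1b5 (6.57 in PM and 7.16 in control, -0.60). Bst1, an ectoenzyme of nicotinamide adenine dinucleotide, had 6.87 in the PM group and 7.83 in the control group (-0.95).

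The genes that rose were different ones, and most of them are on no gene list. Leaving aside the lists of immunoglobulins and silent receptors, 24 of the 66 are on a list. For the genes that fell this was 58 of 117, and for all genes kept 1307 of 13035. Of the 20 with the highest log2 ratios, 19 are also among the 20 highest when levels under 3.68 are raised to it. In these 20, 1 gene is on the list of macrophages and dendritic cells and 2 are on that of the interferon gamma response. Saa3, a serum amyloid protein made by epithelium and macrophages, had 7.41 in the PM group and 5.81 in the control group (1.60). Clec4e, the C-type lectin Mincle of phagocytes, had 4.42 in the PM group and 2.74 in the control group, under the level of silent genes, so it was at least 1.66-fold higher. Gpnmb, a glycoprotein of macrophages, had 5.85 in PM and 4.58 in control (1.27). It was the single one of 14 genes of lipid-associated macrophages that rose, and the list had a median of 0.03, with the lectin Lgals3 at 6.79 in the PM group and 7.13 in the control group (-0.34). The others of the 20 with a known role included the immunoglobulin genes Iglv1 and Ighv1-54, the cysteine protease inhibitor Csta2 (4.41 in the PM group and 3.43 in the control group, at least 1.65-fold higher) and Pla2g7, which breaks down platelet-activating factor (5.84 in PM and 5.23 in control, 0.61). Of the 20, 4 were microRNA genes, and Rbx1-ps and Stxbp3-ps are pseudogenes.

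No gene of macrophages and dendritic cells was lower. Of 25 genes, 18 were higher and 7 identical, with a median log2 ratio of 0.09, and 3 rose. Of these 25, 1 was kept through the PM array alone. Over all 27 measured, 3 rose, 9 were identical and the median was 0.08. Lyz2, the lysozyme of macrophages, had 8.91 in the PM group and 8.22 in the control group (0.69). Lilrb4a, an inhibitory receptor of myeloid cells, had 7.82 in PM and 7.23 in control (0.59), and Fcer1g, the signaling chain of Fc receptors and of Mincle, 7.55 in PM and 7.09 in control (0.46). The integrin gene Itgam (7.61 in the PM group and 7.23 in the control group) and Cd68 (6.73 in PM and 6.36 in control) followed at 0.38, just inside the threshold. The defining genes Csf1r (7.02), Adgre1 (5.23) and C1qa (6.26) had identical values on both arrays, and the summed linear level of the list was 3913 in the PM group and 3433 in the control group. Phagocyte genes outside this list that rose included Cybb, the large subunit of the NADPH oxidase (8.26 in PM and 7.72 in control, 0.54). Others were Itgb2, the partner of Itgam (7.55 in PM and 7.15 in control, 0.40), and Myo1f, a myosin of leukocytes (5.74 in PM and 5.26 in control, 0.48). These were picked from the genes that rose, and phagocyte genes outside the list that did not rise were not counted. Granulocyte genes were mostly not kept. Of 22 measured, 6 were kept, with 3 higher, 1 lower and a median of 0.17, against 0 over all 22. Clec4e, which is on this list too, rose, and Ly6g fell, with 2.94 in the PM group and 4.02 in the control group, at least 1.26-fold lower. Il1b (5.46 in the PM group and 5.10 in the control group) and Lcn2 (5.41 in PM and 5.07 in control) lay between the thresholds, and the granule genes S100a8 (2.22 on both arrays) and S100a9 (2.88 on both) below the level of silent genes.

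Interferon gamma response genes moved in the same direction in most members. Of 28 genes, 6 rose, 1 fell, 21 were higher, 2 were lower and 5 identical, and the median of 0.15 stands beside 0 over all genes. Of these 28, 1 was kept through the PM array alone (Cxcl10). Over all 30 measured, 6 rose and the median was 0.15. Ubd, a ubiquitin-like modifier that is also on the list of follicle epithelium, had 5.03 in the PM group and 4.11 in the control group (0.92). Cxcl9, a chemokine that draws T cells, had 7.23 in PM and 6.43 in control (0.80), and its neighbor Cxcl10 4.23 in PM and 3.82 in control (0.41). Socs1, the feedback inhibitor of the receptor, had 5.07 in the PM group and 4.50 in the control group (0.57). Gbp4, a guanylate-binding protein, had 5.03 in PM and 4.46 in control (0.57), and Igtp, a GTPase of the IRG family, 6.03 in PM and 5.63 in control (0.40). The remaining guanylate-binding and IRG genes kept from the list were higher by less, such as Gbp10 (5.97 in the PM group and 5.66 in the control group) and Irgm1 (4.92 in PM and 4.77 in control). The exceptions were Gbp5 (4.06 on both arrays) and Iigp1 (6.28 in PM and 6.35 in control). Gbp6 (2.80 on both arrays) and Gbp11 (2.73 in PM and 2.36 in control) lay below the level of silent genes and were not kept. Nos2, the inducible nitric oxide synthase, had 9.69 in the PM group and 9.32 in the control group (0.37, between the thresholds). The single gene of the list that fell was Ido1, which breaks down tryptophan, with 6.85 in the PM group and 7.31 in the control group (-0.46). The transcription factor Irf1 had 7.74 in PM and 7.61 in control. The gene of interferon gamma itself, Ifng, had 3.39 on both arrays, below the level of silent genes, and was not kept.

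**Figure D3:**
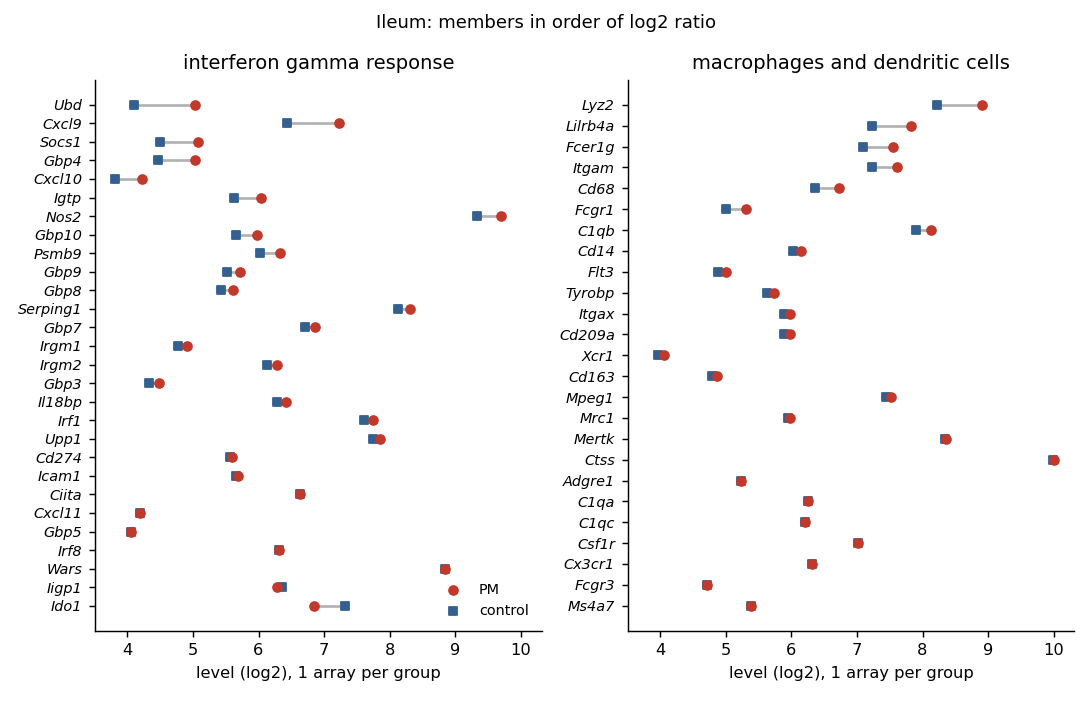
Log2 levels (x) on the PM array (red points) and the control array (blue squares) for the 28 kept genes of the interferon gamma response (left) and the 25 of macrophages and dendritic cells (right), ordered by log2 ratio. The PM point lies right of the control square for 21 genes on the left and 18 on the right, and left of it for Ido1 and Iigp1.

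Related programs were smaller. Of 28 genes of the type I interferon response 1 rose, Ifit1 (6.88 in the PM group and 6.45 in the control group, 0.44), with a median of 0. MHC class II genes were higher in 11 of 16 and lower in none, but none rose, and H2-Aa led them with 9.79 in the PM group and 9.43 in the control group (0.36). MHC class I genes were higher in 14 of 23 and lower in 3. The proteasome activator Psme2, also an interferon gamma target, fell, with 5.19 in the PM group and 5.65 in the control group (-0.46), as did H2-T10 (3.73 in PM and 4.34 in control, -0.61), while the immunoproteasome subunit Psmb9 had 6.32 in PM and 6.02 in control. Complement genes were higher in 14 of 18 and lower in none, with a median of 0.09 and none past a threshold. Over all 23 complement genes measured the median was 0.03. C4b had 7.21 in the PM group and 6.85 in the control group (0.36). Acute phase genes rose in 3 of 7 kept genes, Saa3, the hemoglobin-binding protein Hp (6.24 in PM and 5.78 in control, 0.46) and the ferrireductase Steap4 (4.52 in PM and 4.12 in control, 0.40), but over all 19 measured the median was 0 and the liver-type genes Saa2 (3.39 on both arrays) and Fgb (2.64 on both) were not kept.

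The epithelium over lymphoid follicles, which holds the M cells that take up antigen, had 14 genes kept, of which 3 rose, 11 were higher and none was lower (median 0.09). The defining M cell gene Gp2 (3.29 on both arrays) and Scg5 (3.20 on both) lay below the level of silent genes. Plet1 had 8.22 in the PM group and 6.88 in the control group (1.34), and Tnfaip2 6.24 in PM and 5.76 in control (0.48), beside Ubd. Plet1 and Csta2 are also genes of squamous epithelium, where the keratins Krt4 (3.12 on both arrays) and Krt13 (3.29 on both) lay below the level of silent genes and Tgm3 fell. Lymphocyte markers moved less. Of 14 T cell genes 7 were higher and none lower, with none past a threshold, and of 16 genes of intraepithelial lymphocytes and natural killer cells Ccl5, a chemokine of cytotoxic lymphocytes, rose (8.05 in the PM group and 7.41 in the control group, 0.64). Of 19 B cell and follicle genes 9 were higher, 1 was lower and none passed a threshold.

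Antimicrobial genes of the epithelium split. Of 24 genes, 2 rose (Saa3 and Lyz2) and 4 fell (Mptx1, Retnlb, Reg4 and Reg1), while 16 were higher and 7 lower. The bright C-type lectins Reg3b (12.59 in the PM group and 12.56 in the control group) and Reg3g (12.22 in PM and 12.12 in control) hardly differed. Duox2, the hydrogen peroxide source of the epithelium, had 9.92 in the PM group and 9.55 in the control group (0.37). Slc6a14, an amino acid carrier of the distal gut, was the brightest gene outside the immunoglobulins that rose, with 11.06 in the PM group and 10.51 in the control group (0.56). Ceacam10, an adhesion molecule, had 9.30 in PM and 8.83 in control (0.46), and the enzymes G6pc (6.49 in PM and 6.09 in control, 0.40), which releases glucose, and Tat (8.99 in PM and 8.59 in control, 0.40), which breaks down tyrosine, rose by about the same.

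**Figure D4:**
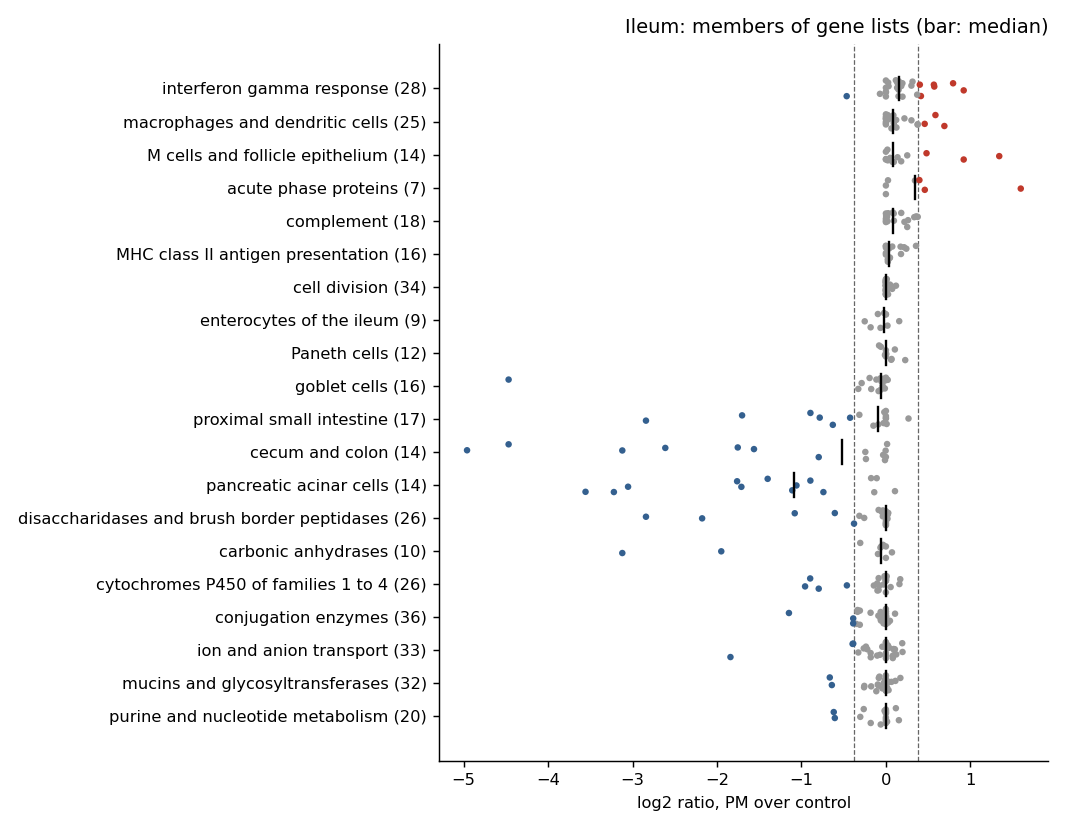
Log2 ratios of PM over control (x) of the kept members of 20 gene lists, with the number of members in brackets, a point per gene, red above 1.3-fold and blue below 0.77-fold; the bar is the list's median and the dashed lines are the thresholds. The first 6 lists, of immune genes and follicle epithelium, have medians of 0.04 to 0.34 over kept members. Over all members measured their medians are 0 to 0.15. The lists of pancreatic acinar cells (-1.08) and of cecum and colon (-0.52) are the 2 with medians far to the left. Over all members measured these are -0.18 and -0.13.

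Many lists held no gene past a threshold. With 0.506% of all genes above 1.3 and 0.898% below 0.77, most lists of 9 to 56 genes would hold none. Their absence therefore says little about these programs. These were markers of ileal enterocytes, Paneth cells, tuft cells, crypt stem cells, smooth muscle, enteric neurons and glia, fibroblasts, endothelium and adipocytes, and genes of cell division, heat shock, endoplasmic reticulum stress, immediate early response, p53, the circadian clock, hypoxia, the respiratory chain, ribosomal proteins, the lysosome and Wnt, Notch and BMP signaling. In some the small differences ran mostly one way. Of 34 cell division genes 11 were higher and none was lower, the largest being Kif20a with 6.37 in the PM group and 6.25 in the control group. Of 56 respiratory chain genes 21 were lower and 5 higher, and of 40 ribosomal protein genes 17 were lower and 6 higher. The medians of these 3 lists were 0. For cell division (23 of 34 identical) and the respiratory chain (30 of 56 identical) the identical values alone set the median, so it does not speak to these differences. Outside the lists, Ndufa11, a subunit of complex I of the respiratory chain, fell (6.13 in the PM group and 6.54 in the control group, -0.41), though not by its brighter probe, and Hspb9, a small heat shock protein, rose (4.66 in PM and 4.14 in control, 0.51).

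Families formed by the letters of the symbol, with 5 or more genes kept, numbered 381. In 3 families 2 or more genes rose and in 11 families 2 or more fell. Among these, the share that rose was 2 of 8 Cxcl genes (Cxcl9 and Cxcl10), 4 of 106 microRNA genes and 2 of 171 Tmem genes. The highest shares that fell among the 11 were those of the Fabp and Reg genes, 2 of 5 each, then Ano (2 of 6), Aqp and Klk (2 of 8 each), Car (2 of 11) and Cyp (4 of 34). Of the 34 Cyp genes, 1 rose (Cyp2a22). Small nucleolar RNA genes of the Snord family, many but not all of which guide the modification of ribosomal RNA, were lower in 22 of 42 and higher in 4. The 2 that fell were Snord118 (4.89 in the PM group and 5.56 in the control group, -0.67) and Snord83b (5.79 in PM and 6.19 in control, -0.40). Within 100000 bases of each other lay 5 pairs of genes past a threshold, each pair from the same family. They were Car1 and Car2 on chromosome 3, Cxcl9 and Cxcl10 on 5, Klk1b5 and Klk1 on 7, Gsdmc2 and Gsdmc3 on 15, and Cyp2c55 and Cyp2c65 on 19. In all 5 both genes moved the same way. How many pairs among all genes kept lie this near or share a direction was not counted, so the 5 have no background share.

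MicroRNA genes past a threshold numbered 7, and mature sequences from RefSeq (GRCm38.p6) are shown for 4 of them. A microRNA pairs with its targets through its seed, bases 2 to 8, which is in capitals, and both arms are shown where both were at hand, since the annotation of the array names the gene and not the arm.
miR-194-5p, chr19:6264658-6264679, plus strand: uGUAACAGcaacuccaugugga
miR-194-2-3p, chr19:6264694-6264715, plus strand: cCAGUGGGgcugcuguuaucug
miR-1932, chr11:119390524-119390545, plus strand: gUUGCGGAcagcgcuaggucgg
miR-2137, chrX:72992113-72992133, plus strand: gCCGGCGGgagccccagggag
miR-344d-3p, chr7:61685279-61685300, minus strand: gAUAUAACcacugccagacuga
miR-344d-2-5p, chr7:61685318-61685341, minus strand: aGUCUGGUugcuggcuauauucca
No seed is shared among these 6. Mir194-2, a microRNA gene of the intestinal epithelium, had 5.08 in the PM group and 4.22 in the control group (0.85). The other miR-194 gene, Mir194-1, was brighter and did not rise (5.85 in PM and 6.04 in control, -0.19). Mir1932 had 5.68 in PM and 4.97 in control (0.71), Mir2137 6.24 in PM and 5.63 in control (0.61) and Mir467e 6.34 in PM and 5.75 in control (0.60). Mir344d-2 fell, with 4.87 in the PM group and 5.57 in the control group (-0.70), as did Mir328 (4.52 in PM and 5.22 in control, -0.70) and Mir124a-2 (3.62 in PM and 4.11 in control, at least 1.34-fold lower). Over all 106 microRNA genes 25 were higher and 34 lower, so the family had no common direction, and all 7 lay at or below 6.34 on both arrays.

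Promoters were read for 5 of the 6 interferon gamma genes that rose (Cxcl9, Cxcl10, Socs1, Igtp and Ubd). Gbp4 was not read. The windows hold 250 bases before and 50 bases after the start of the gene (RefSeq, GRCm38.p6). The motif marked, searched on both strands, is the core of ISRE, GAAANNGAA, to which interferon regulatory factors bind. Its matches are in capitals, and the windows are shown because these genes rose together.
Cxcl9, chr5:92328030-92328329, minus strand: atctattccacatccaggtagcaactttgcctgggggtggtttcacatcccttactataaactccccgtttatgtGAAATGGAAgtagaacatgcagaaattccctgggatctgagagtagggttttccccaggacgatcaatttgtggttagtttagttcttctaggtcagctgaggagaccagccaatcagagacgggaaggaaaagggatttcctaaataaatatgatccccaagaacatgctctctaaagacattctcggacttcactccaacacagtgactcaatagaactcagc
Cxcl10, chr5:92348840-92349139, minus strand: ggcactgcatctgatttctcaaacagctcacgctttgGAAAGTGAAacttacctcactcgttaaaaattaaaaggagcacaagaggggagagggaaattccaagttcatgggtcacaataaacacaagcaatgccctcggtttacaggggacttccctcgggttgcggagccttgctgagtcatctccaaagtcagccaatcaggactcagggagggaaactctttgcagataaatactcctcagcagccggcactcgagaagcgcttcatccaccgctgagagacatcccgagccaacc
Socs1, chr16:10785487-10785786, minus strand: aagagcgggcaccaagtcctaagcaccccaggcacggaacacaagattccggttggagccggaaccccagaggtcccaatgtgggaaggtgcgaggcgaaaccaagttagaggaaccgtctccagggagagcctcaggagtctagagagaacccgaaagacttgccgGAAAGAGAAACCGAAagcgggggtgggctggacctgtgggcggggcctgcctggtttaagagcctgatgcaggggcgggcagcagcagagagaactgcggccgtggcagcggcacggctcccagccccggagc
Igtp, chr11:58199306-58199605, plus strand: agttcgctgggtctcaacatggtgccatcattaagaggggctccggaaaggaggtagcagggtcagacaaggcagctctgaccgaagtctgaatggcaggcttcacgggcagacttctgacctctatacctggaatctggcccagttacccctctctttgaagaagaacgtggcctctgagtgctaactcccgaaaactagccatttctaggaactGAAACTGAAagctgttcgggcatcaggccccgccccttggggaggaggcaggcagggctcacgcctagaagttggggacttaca
In Socs1 both ISRE core matches overlap, and the window of Ubd holds no match to it. The ISRE core was in 9 of the 43 genes that rose and have a window (20.9%), in 5 of 82 that fell (6.10%) and in 8.60% of the 10221 genes kept that have a window (8.56% of all 32851 windows). The 9 genes were Cxcl9, Cxcl10, Cybb, Ifi205, Ifit1, Igtp, Saa3, Socs1 and Spock3. Other motifs were searched in the same way. GGGANNTTC, a core of the NF-kB motif, was in 4 of 43 (9.30%), among them Cxcl9, Cxcl10 and Ubd, in 4 of 82 (4.88%) and in 4.28% of the genes kept (3.94% of all windows). CAAAGTCCA, the letters of HNF4, was in 1 of 43 (2.33%), in 2 of 82 (2.44%) and in 0.587% of the genes kept (0.475% of all windows). TTTATGG, the letters of CDX homeobox factors of the gut, was in none of 43, in 7 of 82 (8.54%) and in 2.21% of the genes kept (2.75% of all windows). A match describes the letters of the window only. The motifs were chosen after the values were seen, so these shares are descriptive and test nothing. Of the 9 genes with the ISRE core, Cxcl9, Cxcl10, Igtp and Socs1 are on the interferon gamma list and Ifit1 is on the type I interferon list.

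The liver arrays of the same groups give the same genes side by side. Over the 13035 genes, 74 were above 1.3 in the liver (0.568%) and 39 below 0.77 (0.299%). Of the 66 genes that rose in the ileum, 6 also rose in the liver, 1 fell and 19 had identical liver values. The 6 were Ccl5 (liver level 5.53 in the PM group and 4.49 in the control group), Saa3 (6.27 in PM and 5.72 in control), Cxcl9 (7.25 in PM and 6.78 in control), Gpnmb (3.18 in PM and 2.76 in control), Pla2g7 (3.75 in PM and 3.33 in control) and the pseudogene Rbx1-ps (3.21 in PM and 2.14 in control). Of the 9 genes of the phagocyte and interferon gamma lists that rose in the ileum, 6 were higher in the liver, 3 identical and 1, Cxcl9, past the threshold. Of the 117 genes that fell in the ileum, 2 fell in the liver, 3 rose and 70 had identical values, and 78 of them reached the liver's level of silent genes on at least 1 liver array. Levels are not compared between the tissues, and the difference between them was not tested, since each group has 1 array per tissue.

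**Figure D5:**
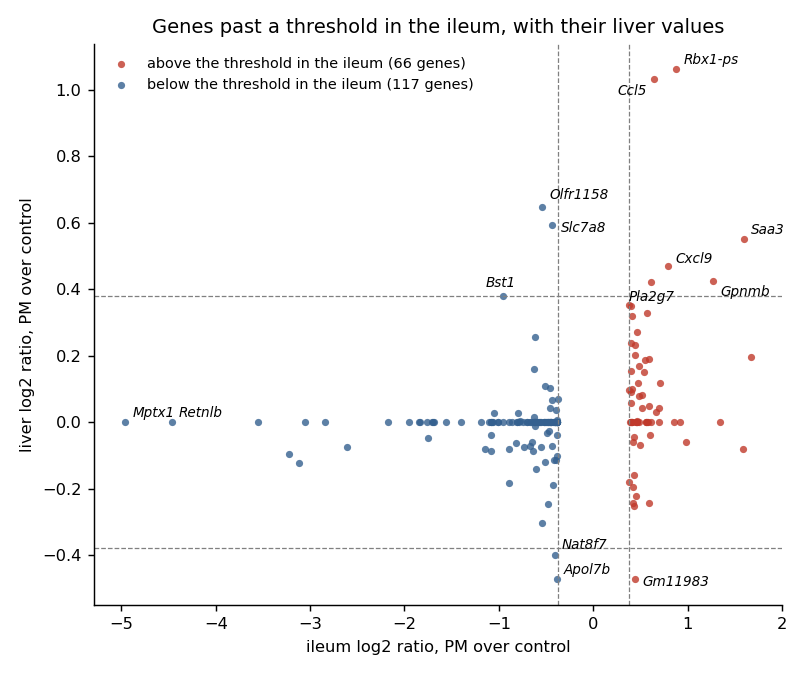
Liver log2 ratio (y) against ileum log2 ratio (x), PM over control in both, for the 66 genes above 1.3-fold (red) and the 117 below 0.77-fold (blue) in the ileum; the dashed lines are the thresholds. Saa3, Cxcl9, Gpnmb, Pla2g7, Ccl5 and Rbx1-ps lie past the threshold in both tissues, and the genes that fell most, such as Mptx1, lie at 0 in the liver.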

How the data were processed

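RNA of the ileum and liver, pooled per group from 10 mice, had been hybridized to 1 Affymetrix mouse gene array each. The values deposited by the authors are log2 levels from robust multichip analysis, which subtracts background, brings arrays to 1 distribution and summarizes probes. The submitters' processing notes name Affymetrix Expression Console 1.3. It is not stated which arrays were normalized as 1 set, so comparisons were made within a tissue. The median of all 41345 probes was 3.98 on both ileum arrays. The platform annotation names 1 gene for 23521 probes, several for 1820 and none for 16004. All 21994 genes whose Entrez ID is in RefSeq (GRCm38.p6) kept their symbol. The fold thresholds follow the study's methods. Log2 ratios, PM minus control, were calculated with Python 3.11.15, numpy 2.4.6 and pandas 2.3.3, and the trend with level was removed by lowess in statsmodels 0.14.6. Counting was tested on simulated data. With 1 array per group there was no test.

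The genes, the 74 gene lists and the thresholds were chosen with earlier results of these data known. Named are the 20 highest and 20 lowest log2 ratios, list members past a threshold, up to 6 of the largest in a list, and family members past a threshold. The level of silent receptors and the motifs were chosen after the values were seen. Longer forms of ISRE and NF-kB and another motif were also searched and are not reported here. Alternatives were other thresholds, other filters, the brightest probe, quantile normalization, trend removal and a floor.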

Additional observations from a re-analysis of the deposited data

Results flagged for a closer look

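In the ileum and the liver, 4 genes had log2 ratios past the thresholds with opposite signs. Bst1 had a log2 ratio of -0.95 in the ileum, against 0.38 in the liver. Slc7a8, an amino acid carrier, had -0.44 in the ileum, against 0.59 in the liver, and the olfactory receptor gene Olfr1158 -0.54 in the ileum, against 0.65 in the liver. The fourth, Gm11983, had 0.44 in the ileum, against -0.47 in the liver. Olfr1158 lay under the level of silent receptors (2.70) on both liver arrays (2.24 in the PM group and 1.59 in the control group) and, in the ileum, under 3.68 in the PM group (3.50), so its values measure no difference. Bst1 had 2.74 in the PM group and 2.36 in the control group in the liver, the control value under 2.70. Slc7a8 (5.32 in PM and 4.72 in control) and Gm11983 (3.95 in PM and 4.42 in control) are the ones measured above it on both liver arrays. With 1 array per group in each tissue the difference between the tissues was not tested.

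Probes outside the comparison also differed. Of 983 probes at or above the median with several gene symbols, 0.407% were above 1.3 and 3.36% below 0.77, with log2 ratios from -4.86 to 0.64. Of 6301 unnamed probes, 11.5% were above 1.3 and 11.6% below 0.77, against 0.551% and 1.04% of 13805 probes with 1 symbol.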

How the results depend on the processing

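The numbers of genes above and below the thresholds (66 and 117) moved with the fold and the level asked for: 21 and 63 at 1.5-fold, 5 and 31 at 2-fold, 125 and 165 with no filter on level, and 28 and 70 at the 75th percentile of level, of which the 165 lies within 1.5 times the main count. With the brightest probe of a gene they were 71 and 121 (65 and 115 of them the same genes), with quantile normalization 70 and 113, with the trend removed 66 and 117, and with a floor at 3.68 they were 64 and 112. Of the 183 genes past a threshold, all kept their direction under the brightest probe, quantile normalization, trend removal and the floor, and their side of the threshold was kept by 180, 179, 183 and 176 in that order. Lost were Igh-VS107, Ndufa11 and Rbp2 with the brightest probe, Apol7b, Lgalsl, Nme1 and Wdr76 with quantile normalization, and Aadac, Anxa8, Gnrh1, Ly6g, Olfr1158, Spock3 and Zfp12 with the floor. Over 19 gene lists and 9 alternatives, the number of members above moved by over 1.5 times in 11 cases and the number below in 20. List medians moved by 0.1 or more in 8 cases: for cecum and colon -0.13 with no filter on level, -1.42 at the 75th percentile, -0.90 with the brightest probe and -0.33 with the floor, against -0.52; for pancreatic acinar cells -0.18 and -0.74, against -1.08; and for acute phase genes 0 and 0.24, against 0.34, with no filter and at the 75th percentile. No paired analysis was possible because each group has 1 array. Genes near 1.3-fold or near the level of silent receptors are the least certain, and no value tells the spread between mice.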
